A study of Porphyridium purpureum with 12 samples.

Results

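The 4 genes named NRT2.5, for a nitrate transporter of high affinity, in the red microalga Porphyridium purpureum were described across all 12 RNA-seq libraries of a gradual nitrogen deprivation. They are POR6298, POR8948, POR1427 and POR7993, taken by their identifiers from the nitrogen metabolism table of the study, and they are 4 of 9898 genes in the count table. The study listed them because each had been called as differentially expressed in these same libraries. That they were called in at least 1 comparison below is therefore no independent evidence. Their identifiers place all 4 on scf295_1, the scaffold that holds 2626 of the 9898 genes (26.5%), the largest number among 52 scaffolds.

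Messenger RNA of strain 1380/1A, a single-celled alga grown in photobioreactors under continuous light, was sequenced as stranded paired-end libraries at 4 levels of residual NaNO3, with 3 libraries each. These were nitrogen-replete (NR, 1.5 g/L, start of the logarithmic phase), nitrogen-limited 1 and 2 (NL1, 0.6 g/L, and NL2, 0.5 g/L, both pre-stationary) and late-stage nitrogen-depleted (LND, 0.3 g/L, stationary phase). The conditions carried no mutation or added agent and differed in sampling time along a cultivation. Effects of nitrate and of the age or phase of the culture cannot be told apart. The labels call the libraries of a condition technical replicates of 1 biological sample, so p-values here measure only the spread between libraries. A figure caption of the study speaks of biological replicates instead. The conflict could not be settled, and the labels were followed.

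NRT2 proteins are membrane carriers of the major facilitator superfamily that couple the entry of nitrate to that of protons and work at low external nitrate. Inside the cell, nitrate reductase reduces nitrate to nitrite, nitrite reductase of the plastid reduces nitrite to ammonium with electrons from ferredoxin, and glutamine synthetase joins ammonium to glutamate. In Arabidopsis, NRT2.5 is the member of the family best known for expression in long nitrogen starvation. The study describes its samples as taken before external nitrate fell to the level that typically activates NRT2.5. That includes LND, at 0.3 g/L residual NaNO3. No function of the individual Porphyridium proteins was measured in these libraries.

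The 4 proteins fall into a group of 3 close copies and 1 more distant member. Over the stretches held in the tables used here (322 residues of each, not the whole proteins), the distant member matched POR1427 at 80.6% of 258 aligned positions. Its identity to the other 2 proteins was 77.3% and 76.8%. Only POR1427 was paired with its protein by identifier. The distant member was paired with POR6298 by its predicted cellular location alone, which is unsure, and the other 2 could not be assigned. POR1427 was 97.0% and 96.0% identical to them, they were 94.0% identical to each other, and identical runs reached 104 residues within this group against 30 residues with the distant member. Reads from stretches of near-identical nucleotide sequence can be lost or divided between genes. Only protein stretches were compared here, and how reads with several locations were counted is not stated. How far this makes the values of POR1427 and its 2 close copies, by this pairing POR8948 and POR7993, uncertain is not known.

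The library totals ran from 6398926 to 30556820 counts, with medians of 12870095 for NR, 28033677 for NL1, 27694090 for NL2 and 21112645 for LND, so NR had the lowest median, although NR replicate 1 was deeper than 1 library of each other condition. NR replicate 3 was the shallowest and stood apart from the other NR libraries, at a distance over log2 CPM of 100.0 and 102 against 34.6 between the other 2. NR replicate 1 was at 100.1 from NL1 replicate 2. NR replicate 3 thus lay about as far from NR replicate 1 as the nearest library of another condition did. All 8 photosynthesis genes used as markers of the alga (psbO, psbP, psbQ, psaO, LHCA1, LHCA4, petC and petH) were detected in every library, with at least 345 counts. All 8 were called higher in NL1 and in NL2 than in NR, against 6.55% and 7.33% of all genes tested. In LND, 6 were called lower than in NL1 and 7 lower than in NL2, against 5.75% and 6.52%. The 8 genes are in the study's list of differentially expressed photosynthesis genes, chosen on these libraries, so these calls are no independent evidence. The part of depth and of this shift in the results below was not tested.

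POR6298 was the member that recovered. Values are CPM, counts scaled to a common library total, with TMM scaling, a scaling that sets the bulk of the genes equal between libraries. Its level was 31.2, 36.6 and 23.3 CPM in the 3 NR libraries, 9.68, 5.88 and 8.41 in NL1, and 9.17, 8.53 and 10.1 in NL2. In LND it was 60.4, 65.9 and 55.9 CPM. The LND libraries were the highest and the NL libraries the lowest, and neither overlapped with NR.

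The NR mean of POR6298 was 30.4 ± 6.71 CPM (SD, n = 3), and the means of NL1 and NL2 were 7.99 ± 1.93 and 9.25 ± 0.771. The LND mean was 60.7 ± 5.00 CPM. NL1 thus stood at 26.3% of the NR mean and LND at 200.1%. The level rose with a log2FC of 2.93 ± 0.19 (SE) in LND vs. NL1 and 2.72 ± 0.15 in LND vs. NL2 (adjusted p of 3.9e-08 and 1.7e-09, edgeR quasi-likelihood test, Benjamini-Hochberg adjusted). Only 24 of the 9045 genes tested had a larger log2FC in LND vs. NL1, and 43 of 9029 in LND vs. NL2. These counts describe where the gene stood and are no test.

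LND vs. NR gave POR6298 a log2FC of 0.92 ± 0.19, with a 95% interval of 0.49 to 1.36 and an adjusted p of 0.0037 (edgeR quasi-likelihood test). A call needed an adjusted p below 0.01 together with a log2FC of 1 or more, or -1 or less, so this difference missed the call by its size. Without NR replicate 2 it was called, at 1.09. Scaling by library totals alone gave 0.62 with an adjusted p of 0.021, and set the LND mean at 154% of the NR mean.

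**Figure D1:**
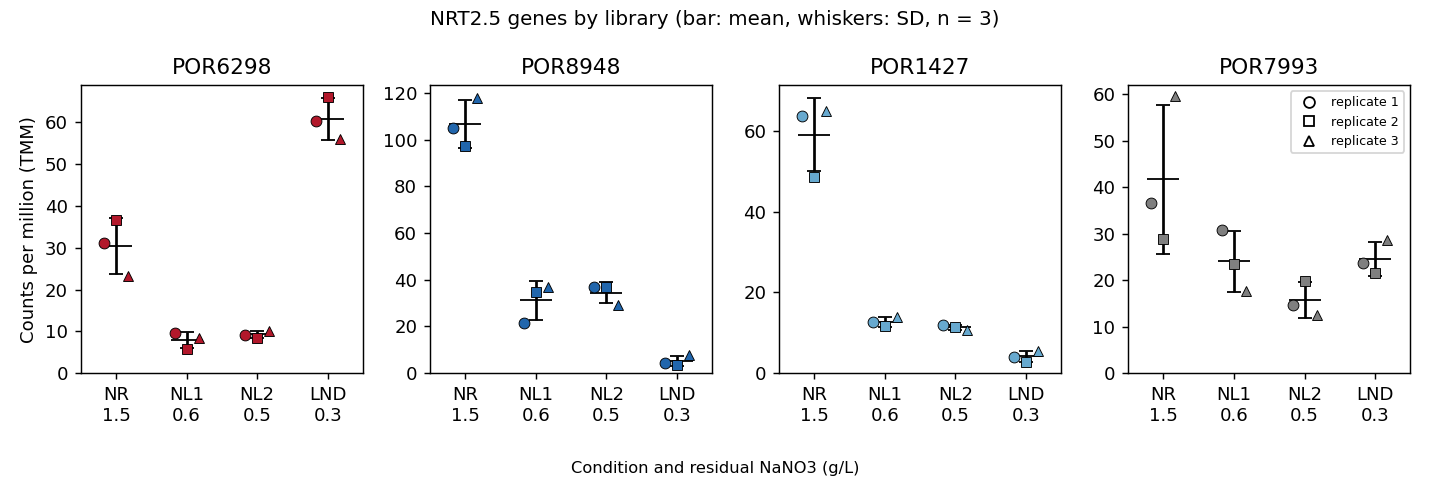
Level of each NRT2.5 gene in CPM (TMM scaling, linear axis from 0) in the 12 libraries, ordered by condition with residual NaNO3 in g/L. Symbols are single libraries, the bar is the mean and the whiskers the SD (n = 3). POR6298 is highest in LND (55.9 to 65.9 CPM), POR8948 and POR1427 are highest in NR and lowest in LND, and the NR libraries of POR7993 are spread from 28.8 to 59.7 CPM.

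POR8948 fell at both steps. It had 105, 97.3 and 118 CPM in NR, 21.6, 34.8 and 36.9 in NL1, and 37.0, 37.0 and 29.2 in NL2. The LND libraries held 4.42, 3.64 and 7.85 CPM, from 78, 58 and 200 counts. All NR libraries lay above all NL libraries, and these above all LND libraries, while NL1 and NL2 overlapped.

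The NR mean of POR8948 was 107 ± 10.3 CPM, against 31.1 ± 8.30 and 34.4 ± 4.50 for NL1 and NL2 (SD, n = 3). The LND mean, 5.30 ± 2.24, was 4.97% of the NR mean. Its log2FC was -4.37 ± 0.28 in LND vs. NR (adjusted p = 3.5e-06, edgeR quasi-likelihood test), and 81 of 9150 genes had a lower one. Against NL1 and NL2 the LND value was -2.53 ± 0.30 and -2.67 ± 0.26, and 25 and 27 genes had a lower value. The LND libraries differed among themselves by 2.16-fold, with a coefficient of variation of 42.3% against 10.5% from counting error alone.

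POR1427 also fell at both steps, with a steeper first step. Its NR libraries had 63.7, 48.6 and 64.9 CPM, its NL1 libraries 12.7, 11.6 and 14.0, its NL2 libraries 12, 11.4 and 10.6, and its LND libraries 4.08, 2.88 and 5.58. No NR library overlapped with any other, and no LND library with any of NL1 or NL2. The mean was 59.1 ± 9.05 CPM in NR and 4.18 ± 1.35 in LND, which is 7.08% of the NR mean.

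The log2FC of POR1427 was -2.21 ± 0.19 for NL1 vs. NR, and -2.39 ± 0.19 when NL2 was set against NR. It was -3.87 ± 0.27 in LND vs. NR (adjusted p = 5.3e-06, edgeR quasi-likelihood test), and 132 of 9150 genes had a lower value. From the NL conditions to LND it fell by 1.60 and 1.42 (adjusted p of 0.00065 and 0.0014, same test). In LND the 3 libraries rested on 72, 46 and 142 counts.

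POR7993 had the smallest log2FC of the 4 in each comparison with NR, and its NR libraries were the most variable. They had 36.7, 28.8 and 59.7 CPM. The NL1 libraries had 30.9, 23.5 and 17.8 CPM, the NL2 libraries 14.7, 19.9 and 12.6, and the LND libraries 23.8, 21.5 and 28.7. NR replicate 3, the library that stood apart, was the highest, and NR overlapped with NL1. The coefficient of variation in NR was 38.4%, against 4.46% from counting error.

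POR7993 had a mean of 41.7 ± 16.0 CPM in NR (SD, n = 3). The NL1, NL2 and LND means were 24.1 ± 6.60, 15.7 ± 3.79 and 24.7 ± 3.66 CPM. Its only call was in NL2 vs. NR, with a log2FC of -1.41 ± 0.29 (adjusted p = 0.0048, edgeR quasi-likelihood test). The call was lost without NL2 replicate 1 (log2FC -1.36, adjusted p = 0.024) and without NL2 replicate 3 (-1.27, adjusted p = 0.033), and with the replicate number as a block (-1.37, adjusted p = 0.014). It held without NR replicate 3, at -1.06. The NL1 vs. NR and LND vs. NR values were -0.79 ± 0.30 and -0.81 ± 0.26, with adjusted p of 0.069 and 0.031 (edgeR). With library totals alone, LND vs. NR was -1.14 and called. The study's tables differ on this gene. Its only listed change stands under LND vs. NR in the main nitrogen table and under NL2 vs. NR in the supplementary version.

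For the same gene, LND vs. NL2 gave 0.65 ± 0.21 (adjusted p = 0.019, edgeR quasi-likelihood test), and the 3 LND libraries lay above the 3 NL2 libraries. LND vs. NL1 gave 0.04 ± 0.21, with a 95% interval of -0.41 to 0.49, and its sign changed with the scaling. The order of the means was therefore NR, LND, NL1 and NL2, and no pair of neighbours in that order was called.

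By comparison, the members were called as follows. In NL1 vs. NR, 3 of the 4 were lower, where 14.5% of the 9192 genes tested were called in either direction, 6.55% higher and 7.92% lower. In NL2 vs. NR all 4 were lower, against 16.4% of genes called, 7.33% higher and 9.08% lower. The median log2FC of the 4 was -1.85 and -1.69, against medians of 0.01 and -0.01 over all genes tested.

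In LND vs. NR, POR8948 and POR1427 were lower, 2 of 4, where 19.7% of genes were called, 7.96% higher and 11.8% lower. In LND vs. NL1, 1 member was higher and 2 were lower, against 12.3% of genes called, 6.51% higher and 5.75% lower. The same genes gave the same split in LND vs. NL2, where 13.5% of genes were called, 6.96% higher and 6.52% lower. The comparisons share libraries, so these counts are not independent of each other.

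NL2 vs. NL1 gave no call of any member, and 0% of the 9104 genes tested were called in edgeR. The log2FC was 0.21 ± 0.26 for POR6298, 0.14 ± 0.20 for POR8948, -0.17 ± 0.20 for POR1427 and -0.61 ± 0.24 for POR7993. Of these, 1 had an unadjusted p under 0.05 (POR7993, 0.027), as did 827 of all genes (9.08%). No member was called by DESeq2 either. The 95% intervals ran from -0.37 to 0.79 for POR6298 and from -1.14 to -0.08 for POR7993, and no member's change between the limited stages was detectable after adjustment.

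**Figure D2:**
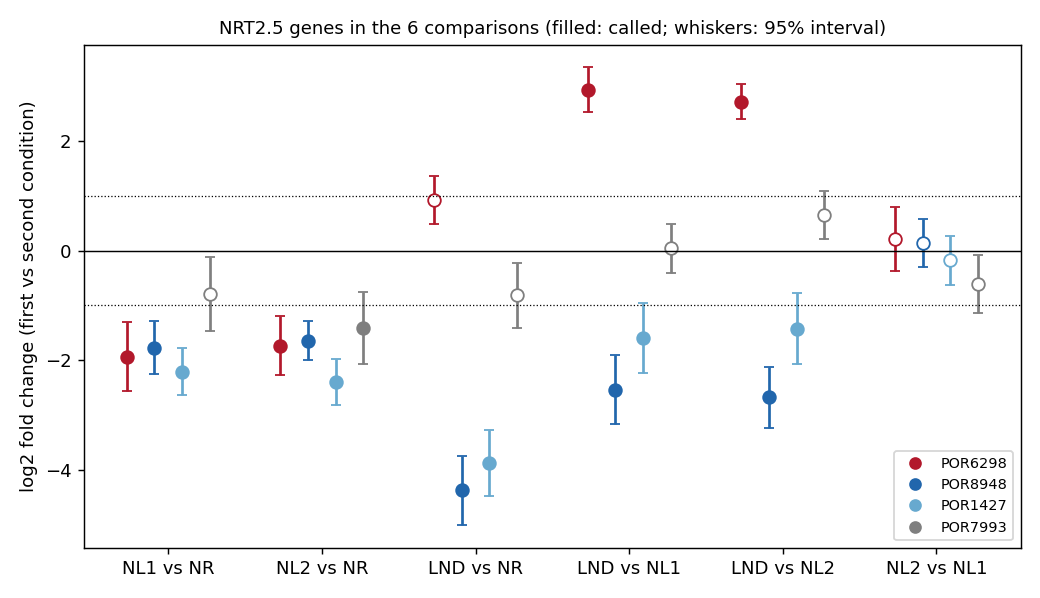
Log2 fold change of each NRT2.5 gene in the 6 comparisons, first condition against second. Whiskers are 95% intervals derived from the edgeR F statistic, filled points passed the call, and dotted lines mark a log2 fold change of 1 in size. POR6298 is the only member above the upper line, at 2.93 and 2.72 in LND vs. NL1 and vs. NL2, where POR8948 lies at -2.53 and -2.67.

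Without NR replicate 3, the log2FC in NL1, NL2 and LND vs. NR was -2.09, -1.88 and 0.77 for POR6298. It was -1.70, -1.56 and -4.29 for POR8948 and -2.14, -2.32 and -3.79 for POR1427. For POR7993 it was -0.45, -1.06 and -0.48, against -0.79, -1.41 and -0.81 with all libraries. No call of a member was gained or lost without this library.

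In a single test of all 4 conditions, each of the 4 genes differed (adjusted p under 0.01, edgeR quasi-likelihood test), as did 46.8% of the 9255 genes tested. The adjusted p was 2e-08 for POR6298, 2.6e-08 for POR8948, 7.6e-09 for POR1427 and 0.003 for POR7993. For POR7993 it rose to 0.012 without NL2 replicate 1 and, likewise, without NL2 replicate 3.

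Because the library scaling cancels in a ratio of 2 genes of the same library, the members were also compared with each other in this way. The log2 ratio of counts was tested over the 4 conditions for all 6 pairs of members, with an exact permutation test over the 12 libraries and adjustment over the 6 pairs. All 6 ratios differed between the conditions at an adjusted p under 0.05, with values from 0.0012 to 0.0174 (exact permutation test). The 6 ratios come from 4 genes and are not independent of each other. Ratios of other gene pairs were not tested, and 46.8% of the 9255 genes tested differed over the 4 conditions. The largest adjusted p, 0.0174, was that of POR6298 to POR8948, which would not pass the 0.01 used for the calls. This does not mark a smaller shift. Its F statistic between conditions, 69.0, was exceeded only by the 83.4 of POR6298 to POR1427. Where a single condition differs and the others are alike, regrouping the libraries of the others leaves F nearly as large. The permutation p-value then cannot become very small, however large the shift. The study had already listed opposite changes among these members in the same libraries. That the ratios differed is therefore no independent evidence. Gene lengths cancel in the change of a ratio but not in the ratio itself, so only the changes are described.

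The ratio of POR6298 to POR8948 had a mean log2 of -1.83 ± 0.47 in NR (SD, n = 3), with -1.95 ± 0.72 and -1.89 ± 0.31 in NL1 and NL2. The libraries of these 3 conditions overlapped, and a difference between the falls of both genes from NR to the limited stages was not tested. In LND the same ratio was 3.59 ± 0.69, with libraries at 3.76, 4.17 and 2.83. The ratio of POR6298 to POR1427 moved likewise, from -0.97 ± 0.54 in NR and -0.29 ± 0.19 in NL2 to 3.90 ± 0.59 in LND.

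The 2 genes that fell at both steps did so in different proportions. The log2 ratio of POR8948 to POR1427 went from 0.86 ± 0.14 in NR up to 1.25 ± 0.43 and 1.59 ± 0.12 in NL1 and NL2, and down to 0.31 ± 0.19 in LND (adjusted p = 0.0034, exact permutation test). The NL2 libraries, at 1.62, 1.70 and 1.46, lay above all NR libraries, and the LND libraries, at 0.11, 0.33 and 0.49, lay below all others. POR1427 was thus further below its NR level than POR8948 in NL2, and POR8948 fell further than POR1427 from NL2 to LND. Single pairs of conditions were not tested for the ratios.

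POR7993 kept more of its NR level than both in LND. The log2 ratio of POR8948 to POR7993 was -2.28 ± 0.37 there and 1.42 ± 0.40 in NR (adjusted p = 0.0034, exact permutation test), but in NL1 and NL2 (0.37 ± 0.80 and 1.14 ± 0.23) it overlapped with NR. The log2 ratio of POR1427 to POR7993 was 0.56 ± 0.38 in NR, -0.88 ± 0.49 and -0.45 ± 0.31 in NL1 and NL2, and -2.59 ± 0.27 in LND (adjusted p = 0.0012, exact permutation test). The ratio of POR6298 to POR7993 was 1.31 ± 0.33 in LND, and at most 0.34 in any other library.

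**Figure D3:**
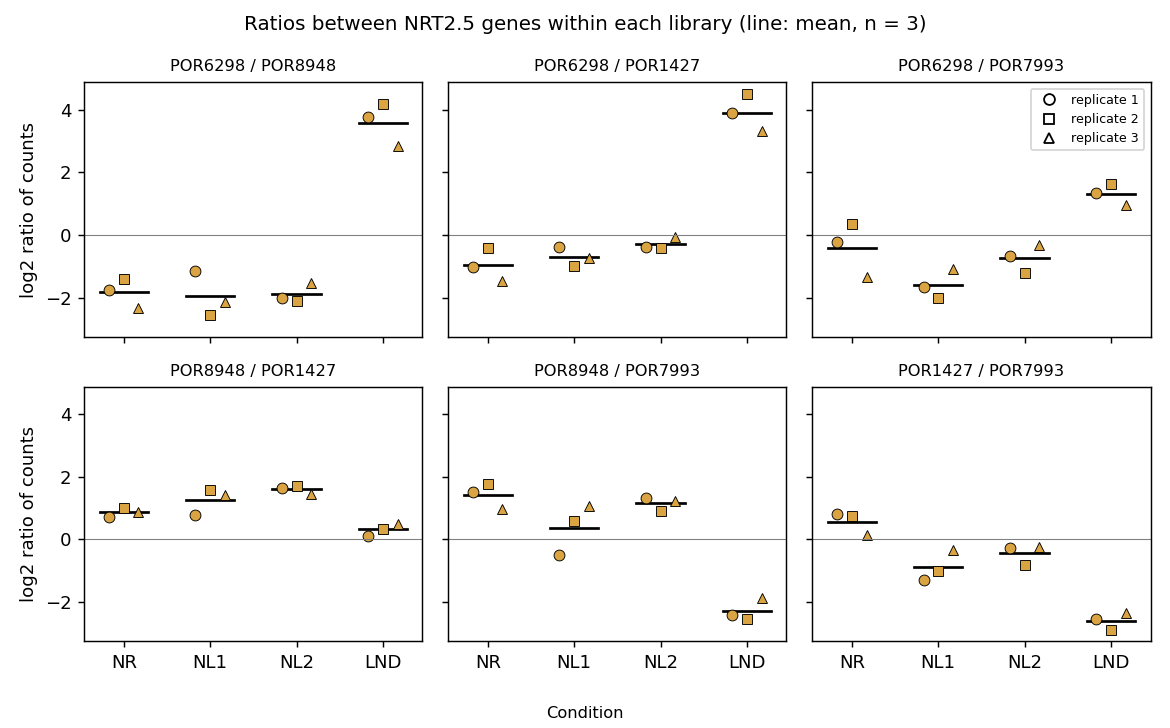
Log2 ratio of counts between each pair of NRT2.5 genes within each library, by condition, with the first gene over the second. Symbols are single libraries and lines are means (n = 3). Ratios with POR6298 on top are highest in LND (means of 3.59, 3.90 and 1.31), and the ratio of POR8948 to POR1427 peaks in NL2 at 1.59.

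Summed over the 4 genes, the reads came to 238 ± 27.1 CPM in NR and 94.9 ± 2.78 in LND, and were lowest in NL1 and NL2, at 76.0 ± 1.11 and 70.7 ± 7.44 (SD, n = 3). The sums were not tested, and the rise from NL1 to LND rested on the TMM scaling. With library totals alone, the means of POR6298, POR8948, POR1427 and POR7993 were 51.1, 4.48, 3.53 and 20.8 CPM in LND. In NL1 they were 8.41, 32.3, 13.4 and 25.5 CPM, which sum to nearly the same. POR6298 held 8.76% to 17.3% of the reads of the 4 genes in the NR libraries, against 57.1% to 70.2% in LND. For NL1 this was 7.75% to 12.9%, and for NL2 11.1% to 16.1%. These are shares of reads and not of molecules, since gene lengths were not used. The share of POR8948 was 44.3% to 46.0% in NR and 3.87% to 8.01% in LND, and that of POR1427 was 23.0% to 26.9% and 3.07% to 5.69%. In NL1 replicate 1 the share of POR7993 was 41.3%, the highest among all libraries, and that of POR8948 was 28.9%, below the 45.9% and 47.9% of the other NL1 libraries. In bulk RNA, less RNA per cell and fewer cells with the transcript cannot be told apart.

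**Figure D4:**
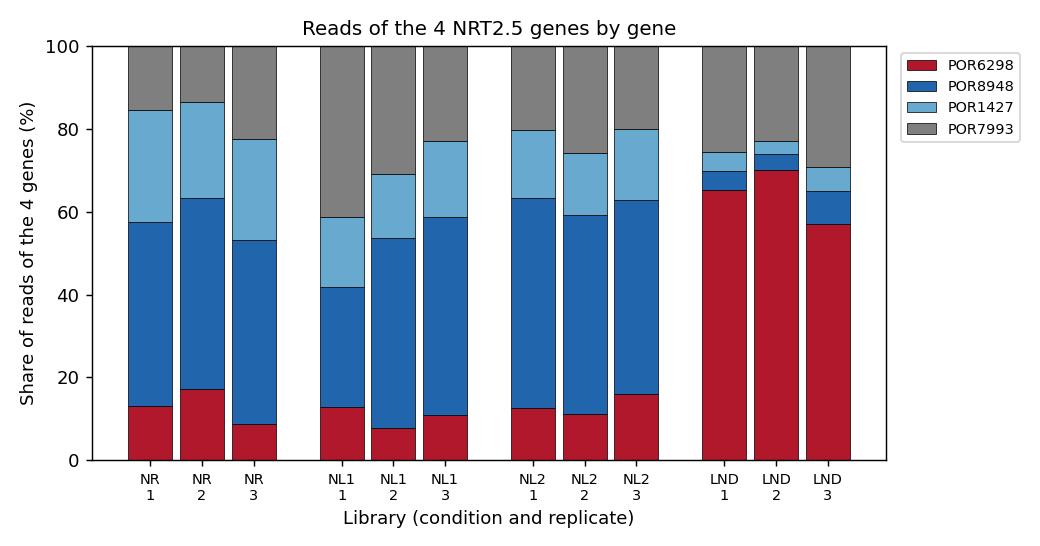
Share of the reads of the 4 NRT2.5 genes that fell on each gene, in percent, 1 bar per library and 100% in each bar. POR6298 takes 57.1% to 70.2% in the LND libraries and at most 17.3% in any other library.

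The enzymes downstream of nitrate entry were described from a list of 6 genes in the same table of the study, also chosen there on these libraries. Of the 6, 1 was higher and none lower in NL1 vs. NR, a share near the 14.5% of all genes called (6.55% higher). This call was lost with library totals alone and without NR replicate 1, and 2 of the 6 were called without NL1 replicate 1. NL2 vs. NR had 2 higher and none lower, against 16.4% of genes called (7.33% higher), and 4 were called without NR replicate 3. Glutamate dehydrogenase (POR3485), which links glutamate to ammonium and 2-oxoglutarate, rose in both (log2FC 1.08 ± 0.17 and 1.24 ± 0.15). Glutamine synthetase (POR7605) rose in NL2 (1.29 ± 0.14). Nitrite reductase (POR2445) had 425 ± 42.5 CPM in NR, 792 ± 69.0 in NL1 and 845 ± 69.1 in NL2, with log2FC of 0.90 ± 0.16 and 0.98 ± 0.14 that missed the call by their size.

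From NL1 to LND, 5 of the 6 were lower and 1 was higher, where 12.3% of all genes were called (5.75% lower). Of these 6 calls, 4 were left without NL1 replicate 1. From NL2 to LND 4 were lower and none higher, where 13.5% of all genes were called (6.52% lower), and 4 were called without any 1 of the libraries. The median log2FC was -1.74 and -1.98, against -0.03 and -0.02 over all genes tested. The nitrate reductase gene POR6787 had 347, 323 and 387 CPM in NL1 and 36.9, 40.3 and 62.1 in LND, and a second one, POR8251, had 127, 118 and 142 against 16.9, 17.9 and 23.9. Their log2FC in LND vs. NL1 was -2.92 ± 0.18 and -2.72 ± 0.15, beside -2.53 ± 0.30 for the transporter gene POR8948. The remaining nitrate reductase gene, POR3077, fell less, with -1.09 ± 0.29 in LND vs. NL1, where its libraries overlapped. In LND vs. NL2 it had -0.34 ± 0.23 and was not called. Nitrite reductase fell with -2.29 ± 0.13. Glutamate dehydrogenase rose with 1.03 ± 0.12 in LND vs. NL1 and had 0.86 ± 0.07 in LND vs. NL2, below the size of a call.

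In LND vs. NR 4 of the 6 were lower and 1 was higher, where 19.7% of all genes were called (11.8% lower), and 4 to 5 were called with 1 library left out. The 3 nitrate reductase genes had log2FC of -2.70 ± 0.24 (POR6787), -2.88 ± 0.23 (POR8251) and -1.32 ± 0.30 (POR3077). NL2 vs. NL1 gave no call among the 6.

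**Figure D5:**
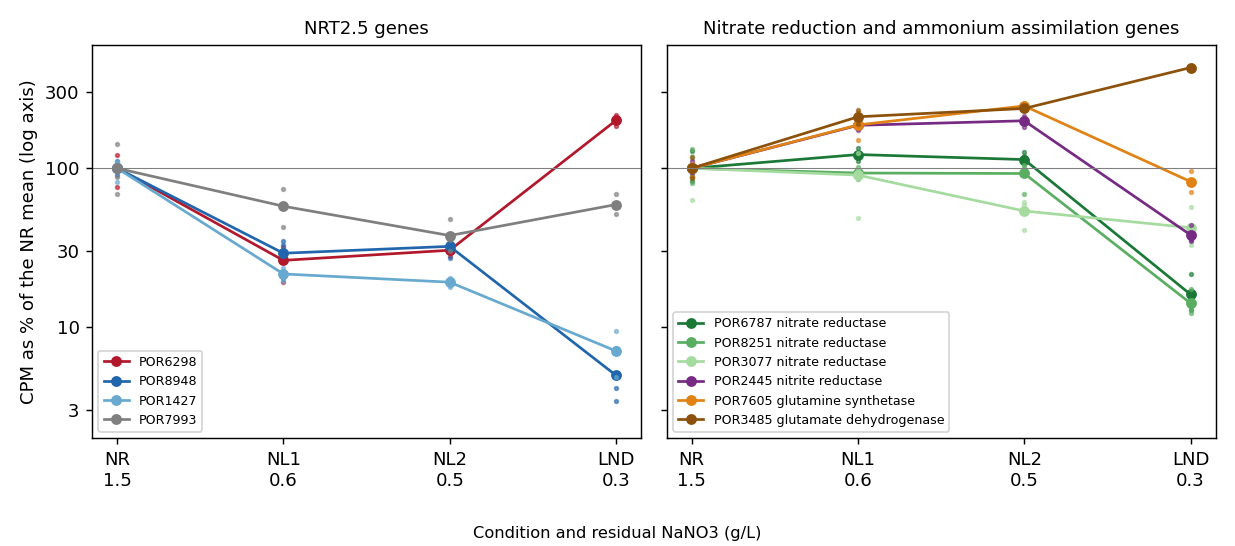
Level as a percentage of the NR mean (log axis) by condition for the NRT2.5 genes (left) and 6 genes of nitrate reduction and ammonium assimilation (right). Large points joined by lines are means and small points single libraries (n = 3). In NL1 the transporter genes stand at 21.6% to 57.7% of NR, and in LND POR6298 stands at 200.1% and POR8948 at 4.97%.

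A further 4 genes were taken for their nitrogen-related product names from the study's list of differentially expressed genes. They were picked with earlier results of these data known, so neither their calls nor their shared direction is independent evidence. Of the 6 enzyme genes above, 5 went the other way in LND vs. NL1. All 4 of the further genes were higher in LND than in NL1 and than in NL2, where 6.51% and 6.96% of all genes were higher. These were an aspartate--ammonia ligase, which makes asparagine (POR2648), an SLAH3 anion channel, a family that in Arabidopsis passes nitrate and chloride out of cells (POR7461), and 2 flavohemoproteins, which in yeast and bacteria detoxify nitric oxide (POR5270 and POR7105). Their log2FC in LND vs. NL1 was 3.21 ± 0.15, 1.67 ± 0.11, 3.79 ± 0.13 and 3.39 ± 0.13, beside 2.93 ± 0.19 for POR6298. In NL1 vs. NR, POR2648 and POR7105 were called lower (-2.68 ± 0.17 and -2.12 ± 0.21), as POR6298 was, where 7.92% of all genes were lower. POR5270 (-0.996 ± 0.20) missed the call by its size, and POR7461 (0.19 ± 0.24) was not called.

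For each member, the 3 genes with the highest Pearson correlation of log2 CPM over the 12 libraries were taken among 9254 others. The points share library, depth and condition, so the values are a description. POR6298 was most like POR7105 (r = 0.98), the flavohemoprotein gene with 987 ± 242 CPM in NR, 227 ± 18.7 in NL1 and 2382 ± 165 in LND. POR3074 (r = 0.98) and POR8410 (r = 0.97) followed, with no product name in the sources used here. POR8948 was most like POR2719 (r = 0.99), POR1427 most like POR2140 (0.98) and POR7993 most like POR3973 (0.96), also without a product name.

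Among themselves, POR8948 and POR1427 were the most alike members, with r = 0.95 (Spearman's rho 0.87, 12 libraries). POR1427 was the 47th nearest of the 9254 genes to POR8948. POR6298 had r of -0.44 with POR8948, -0.17 with POR1427 and 0.38 with POR7993. With nitrite reductase (POR2445) POR6298 had r of -0.95, and POR8948 had 0.89 with the nitrate reductase POR8251.

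One table of the study gives the identifier POR6298 to the photosystem II protein Psb27, and another gives Psb27 the identifier POR4156. POR4156 followed another course, from 72.3 ± 3.86 CPM in NR to 297 ± 46.8 and 338 ± 15.6 in NL1 and NL2, and 148 ± 4.81 in LND. POR6298 was read here as the transporter, and its annotation rests on the study's nitrogen table.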

How the data were processed

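Unnormalized read counts of each gene were deposited for 12 libraries (0 columns unmatched). The authors aligned with STAR 2.7.8a and counted with featureCounts 2.0.1 (gene models version 2, feature type gene). The strand setting and the handling of multi-mapped reads are not given in the sources used here. The 2 conditions of a comparison were modelled alone (6 libraries) with edgeR 4.0.16 in R 4.3.3, after filterByExpr (minimum count 10) and TMM scaling. The quasi-likelihood F-test was adjusted by Benjamini-Hochberg over all genes, and calls needed an adjusted p below 0.01 and an absolute log2FC of 1 or more. Log2 CPM used a prior count of 2 and count ratios 0.5. All 4 members passed the filter in each comparison. Counts of replicate libraries differed beyond counting error (chi-square per degree of freedom 11.5 to 99.1). Protein stretches were aligned in Biopython 1.88. The procedure was tested on simulated data. The named genes are the 4 members, 6 partner genes, 4 further nitrogen-related genes, POR4156 and the 3 genes most like each member. Members and lists were chosen with earlier results of these data known. Alternatives were DESeq2 1.42.0 (likelihood ratio and Wald tests), its size factors, library totals, other filters, all libraries in 1 fit, a replicate block and leaving out each library.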

Additional observations from a re-analysis of the deposited data

How the results depend on the processing

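Of the counts of calls, the alternatives moved those of the 6 partner genes in NL1 vs. NR, from 1 to 0 with library totals, to a range of 0 to 2 with 1 library left out (0 without NR replicate 1, 2 without NL1 replicate 1), and those in NL2 vs. NR to between 2 and 4 (4 without NR replicate 3). With 1 library left out, calls of these genes ranged from 4 to 6 in LND vs. NL1 (4 without NL1 replicate 1) and from 4 to 5 in LND vs. NR. Members called ranged from 3 to 4 in NL2 vs. NR and from 2 to 3 in LND vs. NR with 1 library left out, and stayed at 3, 3, 3 and 0 in the other comparisons. Library totals moved the median log2FC of all genes in LND vs. NR from -0.04 to -0.35. They turned POR7993 in LND vs. NL1 to -0.29 and called it in LND vs. NR (-1.14). Leaving out 1 library turned POR7993 in LND vs. NL1 (-0.12 to 0.26; -0.12 without NL1 replicate 3, -0.08 without LND replicate 3) and POR8948 in NL2 vs. NL1 (-0.065 to 0.28, the former without NL1 replicate 1), none of them calls. With Spearman's rho in place of Pearson's r, 0, 0, 0 and 1 of the 3 genes most like POR6298, POR8948, POR1427 and POR7993 were shared, and 1 of 3 for POR6298 with library totals. Replicate numbers did not pair the libraries (correlations of deviations of -0.22 to 0.10, best with the same number in 4 of 18 cases). The replicate block left 3 of 4 members called in NL2 vs. NR, with POR7993 at -1.37, and changed no other member's call. The cause of these moves was not tested.

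In LND, POR8948 rested on 58 to 200 counts and POR1427 on 46 to 142, which give counting errors of 10.5% and 11.6%.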
